A study of Homo sapiens with 6 samples.

Results

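The peaks of H3K9me3 in BJ fibroblasts carrying PURPL guide 2 were set against those of BJ fibroblasts carrying a control guide. All peaks on chromosomes 1 to 22 were taken, 11582 with guide 2 and 22148 with the control guide, 33730 of the 35843 peaks in both lists. BJ is an established line of human skin fibroblasts. Both groups are the labels' CRISPR interference lines, in which a guide RNA leads a repressor to a gene, here either PURPL or a control. The labels name neither the repressor nor whether a line is a clone or a pool. Each line gave 1 H3K9me3 library and 1 input library from cells fixed with 1% formaldehyde for 10 min, so the differences below stand without replicates and are given without p-values. The series has 6 samples, 2 of them from PURPL guide 1, which are not used here. Peak lists hold no transcript levels, so the labelled cell type was not checked by expression. The sequencing depth is unknown, so how many peaks each library could yield is unknown too.

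H3K9me3 is the trimethylation of lysine 9 on histone H3, written by enzymes such as SUV39H1 and SETDB1 and bound by HP1 proteins. It packs the satellite repeats around centromeres into constitutive heterochromatin. Elsewhere it lies over silenced repeats and over clusters of KRAB zinc finger genes, whose products bring SETDB1 to retrotransposons through the corepressor TRIM28. PURPL encodes a p53-responsive lncRNA, and CRISPR interference is often done with a KRAB domain, which itself leads to H3K9 methylation at the target.

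Few promoters lay under a peak, and the promoters below show where the guide 2 peaks meet gene starts. Sequences are from RefSeq (GRCh38.p14), whose table holds 21156 promoters of 15101 protein-coding genes. A promoter was taken as 250 bases before to 50 bases after a start listed in that table. A gene can have several listed starts, and a promoter can lie inside the gene's annotated span, as at LPXN and MDM2. A control peak touched 28 promoters (0.132%) and a guide 2 peak 10 (0.0473%), 9 of them touched in both lists. The sequences give the 250 bases before the start on the gene's strand, 5′ to 3′, with the bases under a guide 2 peak in capitals. ZNF274 encodes a zinc finger protein that brings H3K9 methylation to other zinc finger genes, PCDHGA8 is a neural adhesion gene, LPXN encodes the adhesion adaptor leupaxin, and TAF11L3 belongs to an array of near-identical gene copies.
ZNF274, chr19:58182811-58183060, + strand: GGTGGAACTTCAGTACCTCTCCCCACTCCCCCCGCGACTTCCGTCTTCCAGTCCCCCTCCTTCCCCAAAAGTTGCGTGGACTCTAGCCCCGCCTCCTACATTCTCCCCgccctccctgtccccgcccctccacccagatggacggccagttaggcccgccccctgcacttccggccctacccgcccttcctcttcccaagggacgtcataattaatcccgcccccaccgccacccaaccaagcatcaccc
PCDHGA8, chr5:141392383-141392632, + strand: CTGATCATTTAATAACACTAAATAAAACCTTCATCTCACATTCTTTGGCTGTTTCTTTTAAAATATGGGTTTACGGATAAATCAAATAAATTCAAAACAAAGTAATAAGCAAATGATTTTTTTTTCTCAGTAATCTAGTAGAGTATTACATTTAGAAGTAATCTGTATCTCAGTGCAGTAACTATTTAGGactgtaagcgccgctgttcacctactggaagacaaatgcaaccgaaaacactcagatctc
LPXN, chr11:58578134-58578383, - strand: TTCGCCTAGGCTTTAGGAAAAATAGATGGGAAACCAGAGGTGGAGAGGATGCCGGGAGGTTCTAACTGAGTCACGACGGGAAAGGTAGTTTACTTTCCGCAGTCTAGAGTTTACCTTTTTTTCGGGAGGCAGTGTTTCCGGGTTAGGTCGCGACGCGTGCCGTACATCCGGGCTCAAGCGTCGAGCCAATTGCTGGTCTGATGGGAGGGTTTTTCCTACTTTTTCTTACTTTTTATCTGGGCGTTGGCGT
TAF11L3, chr5:17518117-17518366, + strand: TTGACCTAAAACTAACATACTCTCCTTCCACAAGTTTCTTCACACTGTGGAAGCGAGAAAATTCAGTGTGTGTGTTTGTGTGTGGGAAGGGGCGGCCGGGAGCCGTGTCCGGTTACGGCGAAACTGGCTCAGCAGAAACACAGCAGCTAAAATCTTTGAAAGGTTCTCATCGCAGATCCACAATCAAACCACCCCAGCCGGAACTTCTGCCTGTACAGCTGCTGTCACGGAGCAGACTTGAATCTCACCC

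At ZNF274 the guide 2 peak covered the first 108 of these 250 bases and the control peak the first 43, so the bases next to the start were free in both lists. At PCDHGA8 guide 2 covered the first 190 bases, and the control covered only the last 9. Among protein-coding promoters, LPXN is the single one with guide 2 coverage alone: 0 bases in the control and all 250 with guide 2, under a peak of 811 bp whose score was above only 9.78% of its list. The nearest control peak lay 104.8 kb away. TAF11L3 was covered throughout in both lists, as were the promoters of TAF11L4, TAF11L6 and TAF11L10.

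The reverse case, promoters with control coverage and 0 bases with guide 2, included PCDHB4, PCDHGA2, PCDHGA11 and PCDHGB6 of the protocadherin cluster, the zinc finger genes ZNF404 and ZNF613, and MDM2, the p53 inhibitor. At MDM2 the control peak reached 31 and 38 bases of its overlapping promoter windows. PCDHGA2 is shown with the 151 bases under the control peak in capitals.
PCDHGA2, chr5:141338510-141338759, + strand: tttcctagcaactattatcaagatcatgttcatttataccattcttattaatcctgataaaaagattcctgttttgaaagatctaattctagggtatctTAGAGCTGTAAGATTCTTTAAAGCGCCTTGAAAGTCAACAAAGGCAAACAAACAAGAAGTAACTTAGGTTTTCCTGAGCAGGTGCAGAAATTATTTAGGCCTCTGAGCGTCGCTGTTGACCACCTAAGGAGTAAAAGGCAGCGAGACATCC
The few promoters under peaks held fewer CG dinucleotides at the median. The 2-base sequence CG (the same on both strands) occurred a median of 21 times in the 300 bases of all protein-coding promoters, against 12 times in those under a control peak and 12 in those under a guide 2 peak. The near-identical promoters of TAF11L3, TAF11L4, TAF11L5, TAF11L6, TAF11L9 and TAF11L10, with 12 each, make up most of the 10 under guide 2. They lie under control peaks too, and with 9 promoters in both sets the medians are not independent. Of all promoters, lncRNA promoters included, 96.0% held at least 1 CG.

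With guide 2, H3K9me3 peaks were fewer and covered less of the genome, and the chromosome arms held a far smaller share of their control coverage than the gene-poor regions. Control peaks covered 31.98 Mb and guide 2 peaks 12.97 Mb, 40.6% of the control length with 52.3% of its peaks. The median width was 865 bp in the control and 792.5 bp with guide 2. Peaks of at least 10000 bp numbered 217 and 8, and the widest measured 48986 and 12449 bp. Of the control peaks, 63.3% had no guide 2 peak over them by even 1 bp, and 36.7% did (95% Wilson interval 36.1 to 37.4, counting error only). Of the guide 2 peaks, 83.4% (82.7 to 84.1) lay on a control peak and 1919 (16.6%) did not. With the control list limited to its 11582 highest-scoring peaks, 58.3% of control peaks were met by a guide 2 peak and 57.1% of the length was left.

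The coverage was split at 29 gene-free stretches, those gaps between neighbouring genes of any kind that reach 1 Mb (172 Mb together), which on most chromosomes span the centromere. Control peaks covered 11.8% of their bases and guide 2 peaks 6.58%. There were 11452 control and 9492 guide 2 peaks in them, over 20.3 and 11.3 Mb. The share left is used throughout for the guide 2 length as a percent of the control length, whether or not the bases coincide, and it was 55.8% here. Everything outside is called the arms. The arms held 10696 control peaks over 11.7 Mb and 2090 guide 2 peaks over 1.63 Mb, so the share left was 14.0%. Of the control bases themselves, 9.096% in the arms, 44.1% in the stretches and 31.3% overall lay under a guide 2 peak. Of the arm control peaks 90.9% had no guide 2 peak, and 9.13% (Wilson interval 8.60 to 9.70) did, against 62.5% (61.6 to 63.4) in the stretches. The stretches thus held 51.7% of the control peaks and 82.0% of the guide 2 peaks. Control peaks had a median score of 29.5 in the stretches and 17 in the arms. What part this has in the contrast was not tested. Where stretches hold repeats, copies can share sequence reads, so the placement of peaks there is uncertain. When the control list was limited to its 11582 highest-scoring peaks, 31.6% of the arm length and 64.6% of the stretch length was left.

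The order of stretch over arm held on every one of the 22 chromosomes. In the arms the length left ran from 6.96% on chromosome 13 to 22.6% on chromosome 8, with a median of 12.1%. On chromosome 8 the single Mb from 85 to 86 Mb held 66.9 of the 104.9 kb of guide 2 arm length, and 87.9 of the 463.9 kb in the control. In the stretches it ran from 38.6% on chromosome 16 to 70.6% on chromosome 6, with a median of 54.1%. Guide 2 peaks outnumbered control peaks in the stretches of 6 chromosomes, though they covered fewer bases there, and in the arms of 0. On chromosome 4 the stretch held 459 control and 506 guide 2 peaks, with mean widths of 2599 and 1442 bp.

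**Figure D1:**
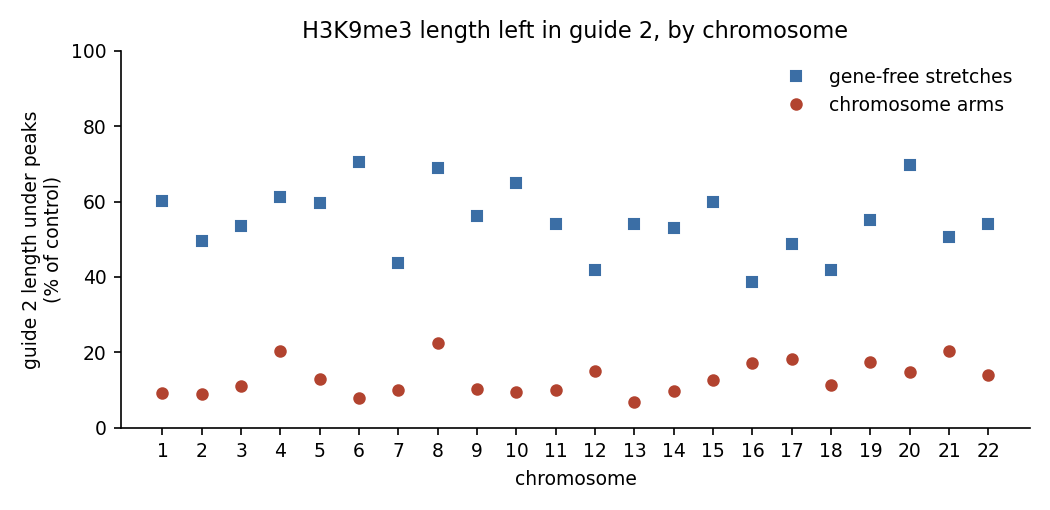
Length under guide 2 peaks as a percent of the control length on each of chromosomes 1 to 22, for gene-free stretches (squares) and chromosome arms (circles), 1 library per group. Every square lies above the circle of its chromosome, with medians of 54.1% and 12.1%.

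The share of control peaks that guide 2 met was larger at greater widths and scores. In the arms, 1.99% of the control peaks under 300 bp were met by a guide 2 peak, 10.9% of those from 1000 to 2000 bp, 32.0% of those from 2000 to 5000 bp, 73.8% of those from 5000 to 10000 bp and 94.6% of the 93 at least 10000 bp wide. A wide peak offers more bases for an overlap, and of the bases in those 93 peaks only 25.2% lay under guide 2, in a mean of 3.13 guide 2 peaks each. In the stretches the share met ran from 30.2% in the narrowest class to 100% of the 124 peaks in the widest, where 59.8% of bases were covered. By the authors' score, whose scale is not named, the share met in the arms went from 2.64% at scores of 10 to 14 to 33.0% at 30 to 49. It was 68.8% for the 16 peaks scoring 100 or more, with a Wilson interval of 44.4 to 85.8.

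**Figure D2:**
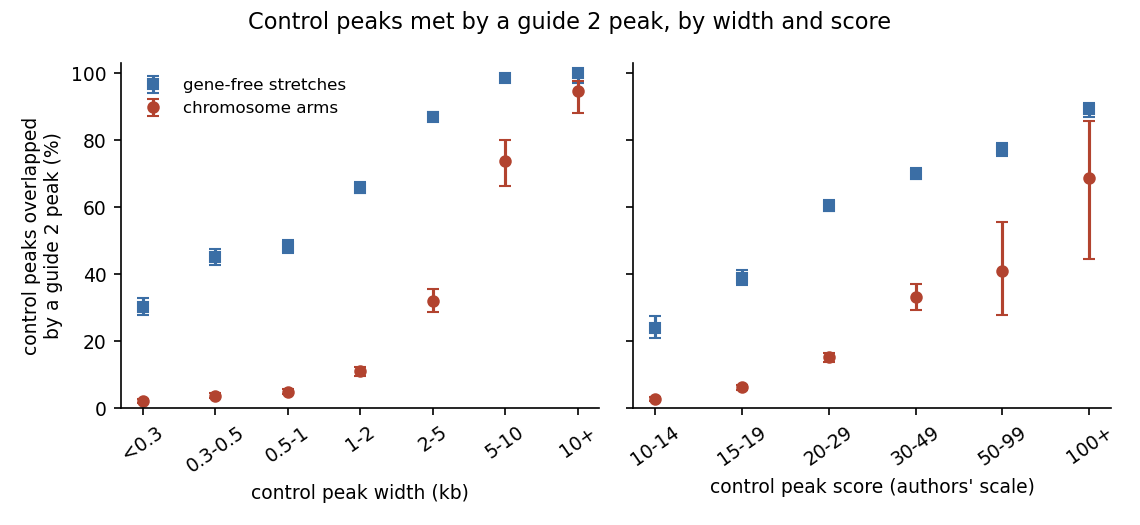
Share of control peaks overlapped by at least 1 bp of a guide 2 peak, by control peak width in kb (left) and by the authors' score (right), in gene-free stretches (squares) and arms (circles). Bars are 95% Wilson intervals. Both series climb with width and score, and the arm points lie below the stretch points in each class, with overlapping intervals only in the widest class.

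Guide 2 covered the middle of the wide arm peaks more than their ends. Among the 253 arm control peaks of at least 5000 bp, guide 2 peaks covered 11.0% of the first 10% of the width, 32.5% of the part from 60% to 70%, and 13.02% of the last 10%. Measured from the nearest end, coverage was 11.9% within 500 bp and 27.1% beyond 2000 bp. The 683 control peaks of that width in the stretches had 51.7% to 56.9% in each such part, and 49.97% within 500 bp of an end against 56.4% beyond 2000 bp. The widest control peak of all, chr4:422039-471024 over ZNF721 and ABCA11P, was met by 13 guide 2 peaks that covered 19241 of its 48986 bp. The next widest in the arms were chr19:36705416-36739477 at ZNF567, with 8429 of 34062 bp covered in 6 peaks, and chr19:36804307-36836270 at ZNF790, with 7484 of 31964 bp in 8 peaks. At scores of at least 22, the pooled median, the coverage was 6.31% within 500 bp of an end and 11.7% beyond 2000 bp.

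**Figure D3:**
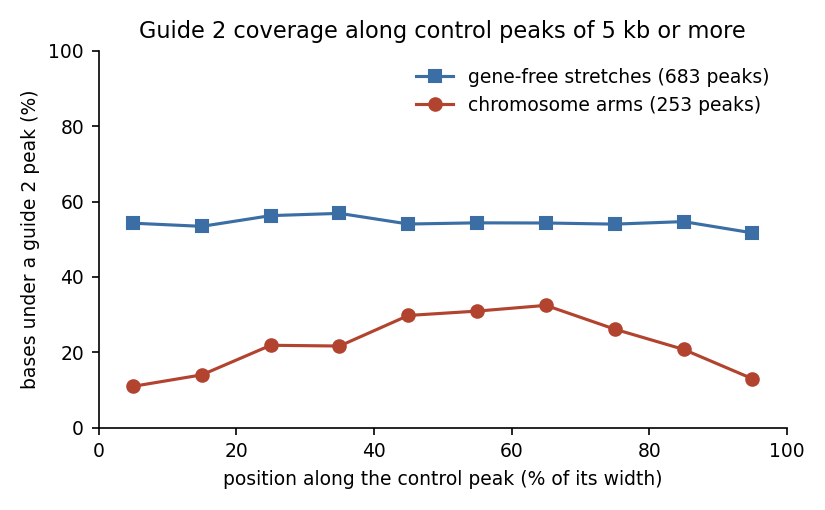
Share of bases under a guide 2 peak in successive parts, each 10% of the width, of control peaks of at least 5 kb, for 683 peaks in gene-free stretches (squares) and 253 in arms (circles), 1 library per group. The arm line climbs from 11.0% in the first part to 32.5% between 60% and 70% and returns to 13.02%, and the stretch line stays between 51.7% and 56.9%.

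Of the guide 2 peaks that touched a single control peak, several of which can sit on the same one, 87.2% of 1224 in the arms were narrower than it, with a median width ratio of 0.26, and 82.3% of 8062 in the stretches, with a ratio of 0.48. The guide 2 peaks with no control peak differed by place too. In the stretches the median distance to the nearest control peak was 1.14 kb, and 94.8% lay within 5000 bp. In the arms it was 32.7 kb, and 36.9% of the 849 such peaks lay within 5000 bp. Arm peaks of the control alone lay a median of 449.9 kb from the nearest guide 2 peak. The arms held 2090 guide 2 peaks against 10696 control peaks, so this distance and the 32.7 kb are not comparable.

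Single peaks show the range. The highest-scoring arm peaks of the control alone were chr22:18730474-18730716 and chr1:236097125-236097372, neither in an annotated gene, and chr7:159088935-159089476 in VIPR2, a neuropeptide receptor gene. They were narrow, 243, 248 and 542 bp. Those of guide 2 alone were chr16:85972649-85972896 outside genes, chr4:190181002-190181220 in DUX4, 1.01 kb from a control peak, and chr5:27426468-27426783. The last of these, 316 bp wide with a score above 91.3% of its list, was also the guide 2 peak nearest to PURPL. The widest guide 2 peak in the arms, chr15:101755764-101764159, measured 8396 bp, of which 7290 lay under control peaks. The widest arm peak of guide 2 without a control peak was chr6:160627956-160630795 (2840 bp) in LPA, the apolipoprotein(a) gene, which had 18365 bp under peaks in the control and 7903 bp with guide 2.

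PURPL itself (chr5:27472292-27496401, lncRNA) carried 0 peaks in both lists. The nearest guide 2 peak lay 45.5 kb away and the nearest control peak, chr5:27358045-27358455, 113.8 kb away with a score above 7.65% of its list. Each was the single peak of its list within 1 Mb. The nearest protein-coding genes on either side, CDH9, a cadherin gene, and LOC124901178, had 0 covered bases in both lists. How far guide 2 lowered the PURPL transcript is not shown by these lists.

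Most protein-coding genes with an H3K9me3 peak in the control had no called peak with guide 2. A gene without a called peak is not shown to lack the mark. Of 19126 genes, 2587 (13.5%) had at least 1 base under a control peak and 738 (3.86%) under a guide 2 peak, and 600 had both. Of the 2587 control-marked genes, 1987 (76.8%) were at 0 with guide 2 and 97.7% had fewer covered bases. Among the 2006 genes with at least 500 covered bases in either list, 1845 (92%) were called lower, meaning at most 50% of the control bases, and 41 (2.04%) were called higher by the reverse rule. Summed over genes, 6558 kb in the control stood against 918 kb with guide 2, 14.0%, the same share as in the arms as a whole. Among 17795 lncRNA genes, 1165 were marked in the control and 206 with guide 2, with 12.0% of the coverage left. A gene counts here by coverage of its body, which does not show its transcript level.

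Zinc finger genes of the list used, 553 in all, held the longest coverage of any list and the largest part of the guide 2 coverage of coding genes. In the control 336 members were marked over 3034 kb, and with guide 2 223 over 579 kb, so 19.1% was left, against 9.60% in the other 18573 coding genes. Every member marked with guide 2 was also marked in the control. Of the 318 members past the size limit 297 were called lower and 0 higher, a share near the background of 92%. At scores of at least 22 the share left was 8.70%. Of the guide 2 peaks in these genes 92.9% (90.2 to 94.8) lay on a control peak, against 44.6% (40.6 to 48.7) in other coding genes of the arms. Control peaks covered 13.6% of the zinc finger gene length and 0.289% of that of the other coding genes. The guide 2 peaks had median widths of 857 and 400 bp, and these 2 shares were not compared at like coverage or width. At like widths, the share of control peaks met was near that of the rest of the arms, 82.2% (76.2 to 87.0) against 79.0% (67.4 to 87.3) from 5000 bp, but from 1000 to 2000 bp it was 20.1% (15.1 to 26.2) against 10.0% (8.83 to 11.4).

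Individual zinc finger genes differed in their guide 2 coverage. ZNF578 had 37603 covered bases in the control and 2395 with guide 2, and ZNF569 had 36771 and 2026. ZNF91, whose protein represses SVA retrotransposons, had 42661 and 7728 bases, the longest control coverage of any coding gene. ZNF717 (40645 and 5462), ZNF718 (37291 and 2772), ZNF559-ZNF177 (39051 and 6486), ZNF540 (35472 and 4429) and ZNF420 (37111 and 7283) were similar. ZNF141 had 37621 and 8652 bases and ZNF69 37884 and 13223. These 10 genes had the largest reductions of all coding genes.

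Others had no bases under a guide 2 peak. ZNF429 (chr19:21505602-21540668) had 18961 covered bases in the control and 0 with guide 2, ZNF317 13649 and 0, ZNF493 13487 and 0, ZNF470 13085 and 0, ZNF347 11857 and 0, and ZNF883 11340 and 0. At scores of at least 22, coverage fell by 7348 bases at ZNF317, it fell by 2038 at ZNF493, and it fell by 4906 at ZNF883. ZNF117 and its readthrough with the endogenous retroviral gene ERV3-1 had 10994 and 13007 bases in the control and 0 with guide 2. The 10 longest losses to 0 held only 2 genes from outside the zinc finger family. These were DENND1A, a Rab guanine exchange factor gene with 12769 control bases in 11 peaks, and IRGM, an autophagy-related GTPase gene with 11595 in 4 peaks.

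The 10 coding genes with the longest guide 2 coverage were all zinc finger genes, 5 of them near the end of chromosome 12. ZNF544 had 14602 bases with guide 2 against 31465 in the control, and ZNF274 12781 against 28801. On chromosome 12, ZNF605 had 12564 against 32742, ZNF140 11771 against 23004, ZNF84 11198 against 24544, ZNF891 9921 against 20008 and ZNF268 9650 against 26688, and ZNF84 had 43.4% of its body under guide 2 peaks against 95.2% in the control. ZNF721 had 12215 against 31763 and ZNF529 9605 against 21334, and the tenth was ZNF69. With peaks within 5000 bp merged, the difference at ZNF274 was 0 bases. ZNF557, chosen after its values were seen, had 9042 bases with guide 2 against 11594, 78.0% of the control.

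Along zinc finger genes the mark lay toward the end of the gene in both lists. Over the 291 control-marked members with a strand in the promoter table, control peaks covered 7.50% of the first 20% of the gene length and 33.2% of the last 20%. Guide 2 peaks covered 1.15% and 7.66%, so the share left was 15.3% in the first part and 23.1% in the last. In 1830 other control-marked coding genes the control coverage was 0.75% in the first part and 0.64% in the last, and guide 2 had 5.40% and 9.58% of it. In these genes the last exon usually holds the zinc finger array, although exons were not used here.

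**Figure D4:**
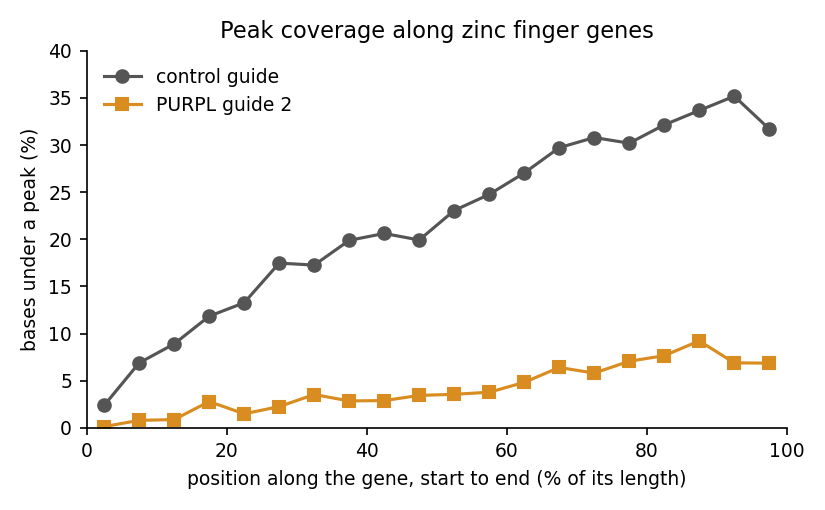
Share of bases under a peak in successive parts, each 5% of the gene length, from start to end, summed over 291 zinc finger genes marked in the control, for the control guide (circles) and PURPL guide 2 (squares), 1 library each. Control coverage climbs from 2.38% at the start to 35.2% near the end, and guide 2 coverage from 0.13% to between 6.86% and 9.22% over the last 20%.

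Clusters differed in the share left. Of the 2683 windows of 1 Mb, counted without the stretches, 2227 held control coverage and 877 guide 2 coverage. In 25 windows the control covered at least 50 kb, 22 of them with zinc finger genes and 17 on chromosome 19. The share of all windows with zinc finger genes is not given here, so the 22 stand without a background. The length left in these 25 ran from 3.63% in the window from 21 to 22 Mb of chromosome 19 (104 kb in the control, 10 zinc finger genes) to 76.1% from 85 to 86 Mb of chromosome 8, with a median of 13.9%. From 64 to 65 Mb of chromosome 7, with 10 zinc finger genes, 5.03% was left. The window from 133 to 134 Mb of chromosome 12, with 6, had 34.9% left, and that from 58 to 59 Mb of chromosome 19, with 16, had 30.6%. The first Mb of chromosome 4 had 212 kb in the control and 42.4 kb with guide 2.

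The clustered protocadherins, adhesion genes that give neurons their surface identity, had a smaller share left than the zinc finger genes. Of 53 genes, 24 were marked in the control and 18 with guide 2, with 4.66% of the coverage left, and all 20 past the size limit were called lower (92% of all coding genes). All of these 20 but PCDHB15 are gamma genes with nested spans. The same bases are thus counted many times, in the coverage as in the calls, and the 20 are not separate cases. PCDHGA1 had 22551 bases in the control and 921 with guide 2, and PCDHGA4 20340 and the same 921, since the gamma genes overlap and share their ends. PCDHGA1 coverage fell by 21630 bases with all peaks. It fell by 6117 at scores of at least 22, and it fell by 5196 against the control limited to its 11582 highest-scoring peaks. The 1 Mb window that holds the cluster (141 to 142 Mb of chromosome 5) had 68.4 kb in the control and 6.78 kb with guide 2.

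**Figure D5:**
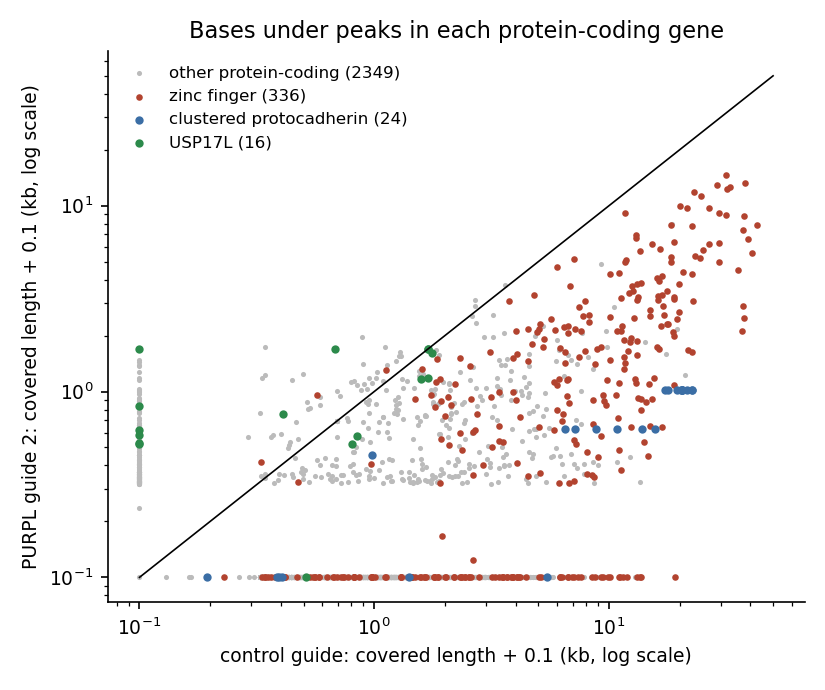
Bases under peaks in the control (horizontal) and with PURPL guide 2 (vertical) for the 2725 protein-coding genes with a peak in either list, on log axes in kb after adding 0.1 kb, with the line of equality. Zinc finger genes reach the longest coverage and lie below the line save for 3, all protocadherins lie below it, and USP17L genes lie on both sides of it.

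Among 26 genes that write, read and erase H3K9 methylation, 7 were marked in the control and 1 with guide 2, against 13.5% and 3.86% of all coding genes. All 7 were called lower, as were 92% of all coding genes past the size limit. ATF7IP, the partner of SETDB1, had 7395 covered bases in the control and 0 with guide 2, ATF7IP2 2115 and 0, and SETDB1 863 and 0. The H3K9 demethylase gene KDM4B had 2521 and 500. The ATF7IP2 difference was 0 at scores of at least 22.

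The imprinted, neuronal and germline lists are read against all coding genes, of which 13.5% had control peaks and 3.86% guide 2 peaks, with 14.0% of the length left. Of 32 imprinted genes 5 had control peaks and 2 guide 2 peaks, with 7.36% left. KCNQ1, an imprinted gene for a potassium channel, had 17381 bases in the control and 1498 with guide 2, and RB1, the retinoblastoma gene, 4338 and 237. The lncRNA SNHG14, host of the imprinted snoRNAs of the Prader-Willi region, had the longest control coverage of any lncRNA gene, 41843 bases, and 7854 with guide 2. Within it, 16 of the 30 SNORD116 snoRNA genes lay under control peaks and 2 under guide 2 peaks, SNORD116-1 and SNORD116-11, a family chosen after its values were seen. SNHG14 had 8 control peaks in all, so several of these 16 genes lie under the same peak and are not separate cases. Of all 1150 snoRNA genes, SNORD116 included, 22 were marked in the control and 2 with guide 2.

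Of 39 long neuronal genes 23 had control peaks and 8 guide 2 peaks, with 12.3% left. A gene counts as marked from 1 covered base, whatever its length. By length, control peaks covered 0.0733% of these genes and 0.528% of all coding genes, and guide 2 peaks 0.00904% and 0.0739%. KCNIP4, a potassium channel partner, had 5155 and 636 bases, the synaptic vesicle gene SYT1 4400 and 222, and the adhesion genes NLGN1 and ASTN2 3452 and 2339 bases against 0. DLG2, a synaptic scaffold gene, had 237 bases with guide 2 alone. Of the germline genes 5 of 31 were marked in the control and 1 with guide 2, DDX4, a germ cell RNA helicase gene, with 1074 and 228 bases. The differences at SYT1, NLGN1, ASTN2 and DDX4 were 0 at scores of at least 22. Among cadherin genes CDH13 had 2586 bases in the control and 3011 with guide 2, and CDH8, CDH17 and CDH19 had control coverage alone, with 4 of 23 members marked in the control and 1 with guide 2.

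Of 36 fibroblast matrix genes 10 were marked in the control, over 15.6 kb, and 0 with guide 2. Of all coding genes 13.5% were marked in the control, and 76.8% of those were at 0 with guide 2. By length, control peaks covered 0.533% of the matrix genes and 0.528% of all coding genes. COL12A1, a fibril-associated collagen gene, had 4503 bases, DCN, which encodes the proteoglycan decorin, 3288, COL14A1 3063 and the thrombospondin gene THBS1 1204. Of 32 p53 target genes 2 were marked in the control, POLK (1824 bases) and MDM2 (1498), and 0 with guide 2. Limiting both lists to scores of at least 22 left no difference at DCN, COL14A1 and POLK. Markers of other cell types were alike: in the control 2 of 19 blood, 2 of 14 endothelial, 1 of 10 melanocyte, 2 of 13 epidermal and 3 of 19 myogenic and bone genes were marked, and 0 with guide 2. Of 19 hepatocyte markers 0 were marked in either list. Of the housekeeping genes 3 of 16 were marked in the control and 0 with guide 2. Olfactory receptor genes, 391 in all, had 6 members under control peaks and 0 under guide 2 peaks, and of 80 ribosomal protein genes 1 and 0. The HOX, keratin, beta-defensin, histone and PRAME lists had 0 marked genes in both. NBPF and GOLGA genes had 2 and 1 marked of 43, and the partners of KRAB proteins 2 and 1 of 6, the 1 being ZNF274.

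Some tandem arrays of near-identical copies had nearly as much coverage with guide 2 as in the control, or more. The USP17L genes, deubiquitinase copies of 1 array on chromosome 4 and others on chromosome 8, had 10 of 25 members marked in the control and 15 with guide 2. Their coverage was 10.7 kb in the control and 14.2 kb with guide 2, 133% of the control, and of the 12 past the size limit 0 were called lower and 5 higher, beside backgrounds of 92% and 2.04%. USP17L25 (chr4:9329911-9331503) had 0 control bases and all 1593 of its bases under guide 2, USP17L17 and USP17L18 were covered throughout in both lists, and USP17L22 had 1593 and 1082. USP17L28 and USP17L5 had 739 and 522 bases with guide 2 alone. With peaks within 5000 bp merged the differences at USP17L25 and USP17L5 were 0, and at scores of at least 22 that at USP17L28 was 0. With the 4 pseudogene copies counted, 108% was left, and of 15 past the size limit 3 were called lower and 5 higher.

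Further arrays were chosen after their values were seen. The TAF11L genes of chromosome 5 had 7 of 14 members marked in both lists, with 97.0% of the coverage left. In 6 of the 7 the counts were equal, 597 bases of 597, and TAF11L7 had 597 and 471. The promoter windows of these 7 were 99.3% to 100% identical, position by position, over 21 pairs, and TAF11L8, at 0 in both lists, was as close to them (99.3% to 100%). The REXO1L pseudogenes, in the window of chromosome 8 named above, had 81.4% left. The 45S ribosomal RNA genes of chromosomes 21 and 22 had 8.06 kb in the control and 10.5 kb with guide 2, 131%, where subunit genes nested in a 45S gene count again. DUX4, a transcription factor gene in the D4Z4 array, had 2595 and 2778 bases, but of the 47 genes of its family 4 were marked in the control and 2 with guide 2. Copies this alike share sequence reads, so the copy that a peak is placed on is uncertain. How the reads were assigned is not given in the sources used here.

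Guide 2 coverage above the control was short. The 41 genes called higher, 5 USP17L genes among them, had 512 to 1855 covered bases with guide 2, 38 of them in 1 peak, 32 had 0 in the control, and 0 were zinc finger genes. SHLD2, a DNA repair gene, had 242 bases in the control and 1630 with guide 2, and CAMK4, a calcium-dependent kinase gene, 783 and 1855. With 0 in the control stood C7, a complement component gene (1387 bases with guide 2), PCLO, a presynaptic scaffold gene (1336), URB1 (1292), the mitophagy receptor gene BNIP3L (1275), AHRR, the repressor of the aryl hydrocarbon receptor (1173), the interferon receptor gene IFNAR1 (1079) and EYA4 (1058). Limiting both lists to scores of at least 22 left no difference at SHLD2 or at these 7 genes from C7 to EYA4. The largest gain of any lncRNA gene was at CYKILR on chromosome 19, from 14874 to 17849 bases in 14 peaks each, and ZNF8-DT had 16663 in the control and 11612 with guide 2.

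MicroRNA genes gave 1 more case of coverage with guide 2 alone, chosen after its values were seen. A guide 2 peak at chr9:134848842-134850269, 261.5 kb from the nearest control peak and with a score above 68.2% of its list, covered 4 of the 7 hairpins of the MIR3689 cluster. Distinct mature sequences of these hairpins, from RefSeq, are shown with that of hsa-miR-571, described below them, to show which share a seed (bases 2 to 8, in capitals).
hsa-miR-3689a-3p: cUGGGAGGugugauaucguggu
hsa-miR-3689c: cUGGGAGGugugauauuguggu
hsa-miR-3689a-5p: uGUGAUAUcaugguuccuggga
hsa-miR-3689d: gGGAGGUGugaucucacacucg
hsa-miR-571: uGAGUUGGccaucugagugag
The first pair share a seed, which hsa-miR-3689b-3p has too, and several copies have the same mature sequence throughout. That of hsa-miR-3689a-5p recurs in hsa-miR-3689b-5p, hsa-miR-3689e and hsa-miR-3689f, and hsa-miR-3689d has its own. The hairpins MIR3689A, MIR3689C and MIR3689D1 were covered throughout, and MIR3689B over 145 of 148 bases. MIR3689D2, MIR3689E and MIR3689F had 0 bases in both lists. In the other direction, MIR571, inside ZNF141, had all 96 hairpin bases under a control peak and 0 with guide 2. Over 1793 miRNA genes 2 were marked in the control and 6 with guide 2.

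By place, the arm coverage of guide 2 was spread unevenly. In the arms outside zinc finger genes, 10.7% of the length was left in other coding genes, 10.8% in lncRNA genes, 23.7% in other genes and 13.7% between genes. Zinc finger genes held 8.26% of the arm control peaks and 23.5% of the arm guide 2 peaks. Arm peaks lay far from gene starts in both lists: the median distance to the nearest start in the promoter table, which has no entries for chromosome 8, was 39.9 kb for control peaks without guide 2, 23.5 kb for those met by guide 2 and 40.4 kb for guide 2 peaks alone.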

How the data were processed

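ChIP-seq of H3K9me3 was deposited as 1 peak list per cell line, with positions and a score per peak. The submitters' processing notes list MACS2 (version 2.2.9.1), Bowtie2 (version 2.4.2), deepTools (version 3.5.1) and GATK, and the builds GRCh38.p13 and hg38. The score is the authors' own deposited value, at least 10 in both lists, on a scale not given in the sources used here, as are calling settings and read numbers. Scores ranked and binned peaks within a list, and 1 score limit for both lists served as an alternative. Guide names within the peak names differ from the labels, and the labels decided which list is which.

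Peaks on chromosomes 1 to 22 were compared by overlap of at least 1 bp. Control peaks elsewhere were 6.36% of that list and guide 2 peaks 4.99%. Genes came from the RefSeq table of GRCh38.p14, as spans without exons, so covered bases are counted per gene and shared by overlapping genes. Intervals are 95% Wilson intervals and cover counting error only. Scripts ran under Python 3.11.15 with pandas 2.3.3, numpy 2.4.6, matplotlib 3.10.9 and scipy 1.17.1. The overlap and coverage steps were tested on simulated data: over 5 runs on subsets of the 22148 control peaks, each narrowed to 50%, 100% of the kept peaks and 0 removed peaks were called shared.

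Genes were named by rule: PURPL with its coding neighbours, the 10 largest reductions and gains, the 10 longest in the control with none in guide 2, the 10 longest in guide 2, the 5 longest with guide 2 alone, up to 4 members per list, and the 3 highest-scoring peaks of each class. The lncRNA genes and tandem arrays were picked after their values were seen. The result of 1 gene list is not reported here. Members and lists were chosen with earlier results of these data known. Alternatives are other overlap, score, merging, gene and stretch limits.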

Additional observations from a re-analysis of the deposited data

How the results depend on the processing

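With 1 library per group, no alternative is a test. A share moved when it left its Wilson interval, and a count, length or ratio when it changed by over 1.5 times. Of 98 alternative values 68 did neither, 29 moved and 1 reversed. The reversed one was the median width of guide 2 peaks, 91.6% of the control and 148% with peaks within 5000 bp merged.

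Of control peaks, 36.7% were met by guide 2, 20.8% with 50% of the peak covered, 15.4% with reciprocal 50% overlap, 41.7% at scores of at least 22, 58.3% with the control limited to the number of guide 2 peaks, and 18.6% merged. Of guide 2 peaks on control peaks (83.4%) these settings gave 72.5%, 29.5%, 80.2%, 72.0% and 78.1%. Of arm control peaks (9.13%) cover of 50% gave 3.02%, reciprocal overlap 2.36%, the limited control 20.8%, the longest gene-free interval of each chromosome as the only stretch 15.6%, and leaving out chromosome 19, chosen after seeing the data, 7.43%.

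With the limited control, whose lowest score was 21, guide 2 had 100% of the control's number of peaks, 31.6% of the arm length was left, and 1064 coding genes were marked in the control, 722 called lower and 141 called higher. At scores of at least 22 there were 968 marked in the control, 242 with guide 2, 703 lower and 23 higher. Zinc finger genes then had 8.70% left and the arms 12.1%, whereas with all peaks zinc finger genes were above the arms. Wide arm peaks were then covered over 6.31% within 500 bp of an end and 11.7% beyond 2000 bp. Merging gave 6.87% for the former. With at least 500 covered bases required, guide 2 marked 434 coding genes. Of 77 named coding genes that were called, 1 changed direction, DDX4, 228 bases longer with guide 2 under the limited control. At scores of at least 22, 32 of the 77 had no difference left. No paired analysis was possible because each group has 1 library. Sequencing depth is unknown, and what part it has in the peak numbers was not tested.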

Other observations

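Outside chromosomes 1 to 22, the X chromosome held 479 control peaks over 363 kb and 139 guide 2 peaks over 80.9 kb, so 22.3% of the length was left. Chromosome Y is not described here. Unplaced, unlocalised and patch sequences held 917 control peaks over 1153 kb and 399 guide 2 peaks over 425 kb, 36.9% of the control. On 26 of the 203 such sequences with a peak the guide 2 length was above that of the control. Genes with FRG1 and FRG2 names, most of them pseudogenes, were chosen after their values were seen. FRG1 and FRG2 themselves lie near the end of chromosome 4. Of these 24 genes 6 were marked in the control and 3 with guide 2, over 14.7 and 2.404 kb. Of 5 past the size limit 4 were called lower and 1 higher, beside 2757 and 72 of the 3007 genes of all kinds past it. FRG1DP on chromosome 20 had 8467 covered bases in the control and 0 with guide 2, and FRG1BP on the same chromosome had 869 and 1820.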
